A study of Mus musculus with 12 samples.

Results

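The enzymes that desaturate and lengthen polyunsaturated fatty acids were examined in mouse liver with and without LRH-1. The set held 8 of the 24062 genes in the count tables, taken by symbol: the desaturases Fads1, Fads2 and Fads3, the elongases Elovl1, Elovl2 and Elovl5, and Hsd17b12 and Tecr, which encode enzymes of later steps in the elongation cycle. The rule names the genes by function and uses no measured value, but the set was drawn up with earlier results of these data known. All 8 passed the filter on low counts that left 12015 genes for testing.

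Dietary linoleic and alpha-linolenic acid become arachidonic, eicosapentaenoic and docosahexaenoic acid by alternate desaturation and elongation, mostly in the endoplasmic reticulum of hepatocytes. Fads2 encodes the delta-6 desaturase, Fads1 the delta-5 desaturase, and Elovl5 and Elovl2 the elongases that act between and after them. The acyl chains made in this way are built largely into membrane phospholipids, and transcription of several of these genes is known to respond to SREBP1 and to fatty acids themselves.

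Livers came from male mice aged 14 weeks, of a mixed 129SvEV-C57BL/6 background, in which the Nr5a2 gene that encodes LRH-1 was floxed in every group. Knockouts had received Cre from an AAV8 vector, and controls were F/F animals without Cre that, by the series text, carried AAV8-eGFP instead. For 6 weeks they ate a standard diet, abbreviated SD (controls n = 3, knockouts n = 3), or the high-fat diet D12492, abbreviated HFD (controls n = 4, knockouts n = 2). Neither the promoter in front of Cre nor the exons it removes is given in the sources used here. No label says outright that every library is a different animal, and the p-values therefore describe variation among libraries.

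Library totals ran from 2371167 to 3404570 counts on SD and from 7463792 to 10875478 on HFD, so diet and depth cannot be told apart. The diets also differed without overlap in the share of counts from the ribosomal RNA gene Rn45s (0.291% to 0.460% on SD, 0.985% to 1.32% on HFD) and from ribosomal protein genes (0.138% to 0.184%, and 0.673% to 0.799%). The libraries labelled knockout did not have fewer counts of Nr5a2 (SD controls 84.4, 74.8 and 85.8 CPM, knockouts 95.3, 100.1 and 94.7, and HFD controls 64.3 to 77.0 CPM, knockouts 69.1 and 84.5). CPM are counts per 1000000 counts of the TMM-normalized library. Nr0b2, a classic LRH-1 target that encodes the corepressor SHP, was at 10.5 to 15.3 CPM in SD controls with no count in any SD knockout, and at 6.26 to 13.3 CPM in HFD controls against 0 and 0.335 CPM. The Nr5a2 counts do not show the deletion, and genotype is taken from the labels, by which Nr0b2 differed without overlap on both diets. HFD control 1 stood apart on the second principal component, at -3.34 where its fellow controls were at 11.8 to 18.8 and the knockouts at -24.4 and -20.6, so results on HFD are given with and without it. All 9 hepatocyte markers were detected and tested, and in bulk RNA fewer cells of a type and less RNA per cell cannot be told apart.

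Promoter windows of the 250 bases before the start site were found for 7 of the 8 genes in RefSeq (GRCm38.p6), and Fads1 had no entry. Those of Elovl5 (chr9:77917115-77917364, plus strand) and Fads2 (chr19:10101504-10101753, minus strand) are shown because both genes were lower in the knockouts. That of Elovl2 (chr13:41220404-41220653, minus strand, the upstream of its annotated starts) is shown as the partner elongase whose SD groups overlapped. Capitals mark matches on either strand to the 5 motifs searched: CCAAT (the NF-Y box), CACGTG (an E-box), GGGCGG (a GC box), TCACNCCAC (a sterol response element) and CAAGGNCA (the core of the LRH-1 half-site). The windows read 5′ to 3′ along the gene's own strand and end at the base before the start. The counts were made on build mm9 and carry no coordinates.

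Elovl5: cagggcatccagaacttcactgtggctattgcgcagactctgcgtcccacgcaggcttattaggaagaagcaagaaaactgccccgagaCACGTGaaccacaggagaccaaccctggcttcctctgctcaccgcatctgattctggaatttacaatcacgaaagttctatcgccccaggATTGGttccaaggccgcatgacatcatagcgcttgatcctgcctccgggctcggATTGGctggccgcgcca
Fads2: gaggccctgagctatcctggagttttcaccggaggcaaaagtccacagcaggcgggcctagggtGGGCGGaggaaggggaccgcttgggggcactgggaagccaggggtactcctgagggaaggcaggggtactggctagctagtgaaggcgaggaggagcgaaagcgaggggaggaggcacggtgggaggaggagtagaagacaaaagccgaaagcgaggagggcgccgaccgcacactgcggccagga
Elovl2: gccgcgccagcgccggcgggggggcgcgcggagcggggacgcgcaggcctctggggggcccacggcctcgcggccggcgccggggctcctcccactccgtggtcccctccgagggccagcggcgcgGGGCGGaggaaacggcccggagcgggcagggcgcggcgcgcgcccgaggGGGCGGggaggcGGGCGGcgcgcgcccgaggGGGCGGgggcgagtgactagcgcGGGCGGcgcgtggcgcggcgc

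The Elovl5 window held an E-box that began 161 bases before the start and CCAAT on the opposite strand beginning 71 and 17 bases before it. The Fads2 window held 1 GC box, 186 bases before the start. The Elovl2 window, with a GC content of 87.2%, held 5 GC boxes. Of all 32851 windows of this length, 6.02% held the E-box, 33.8% CCAAT and 32.7% the GC box. Neither the LRH-1 half-site (5.53% of windows) nor the sterol element (1.05%) was spelled in any of the 9 windows of the 7 genes, which says only that these letters are not in these windows. In these 3 windows no match overlaps another motif.

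On the standard diet the delta-5 and delta-6 desaturases and the elongase Elovl5 were lower in the knockouts, while Elovl2 and the enzymes of the later elongation steps stayed near the control level. Fads1 and Fads2 were about 2.09-fold and 1.98-fold lower, and Elovl5 was 3.78-fold lower. These 3 of 8 members fell and 0 rose, where 4.38% of all tested genes were called, 2.94% lower and 1.44% higher (edgeR quasi-likelihood test, Benjamini-Hochberg adjusted over all 12015 genes, called under 0.05). The same 3 were the members whose knockout libraries all lay below all controls, which held for 12.3% of genes. The median log2 fold change of the 8 members was -0.29, beside 0.00 for all genes.

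Fads2, the first desaturase of the pathway, was at 117, 98.1 and 110 CPM among SD controls and 47.7, 52.4 and 64.1 CPM in the SD knockouts. Every knockout was below every control (log2 fold change -0.98, SE 0.20, edgeR adjusted p = 0.0118). The call was just missed without SD control 3 (adjusted p = 0.0542), without SD knockout 1 (0.0540) or without SD knockout 2 (0.0556), with changes of -0.89 to -0.97. Fads1, which makes arachidonic acid from its elongated precursor, was at 615, 562 and 710 CPM in controls and 261, 366 and 275 CPM in knockouts. The groups were again apart (-1.07, SE 0.18, edgeR adjusted p = 0.003), and the call held with each library left out. Fads3, a desaturase-like relative of the other two, was scarce at 8.20, 7.64 and 11.0 CPM against 6.00, 8.01 and 5.92 CPM. Its groups overlapped, and with 17 to 36 counts per library a change of -0.46 (SE 0.37, edgeR adjusted p = 0.595) was not distinguished from none.

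**Figure D1:**
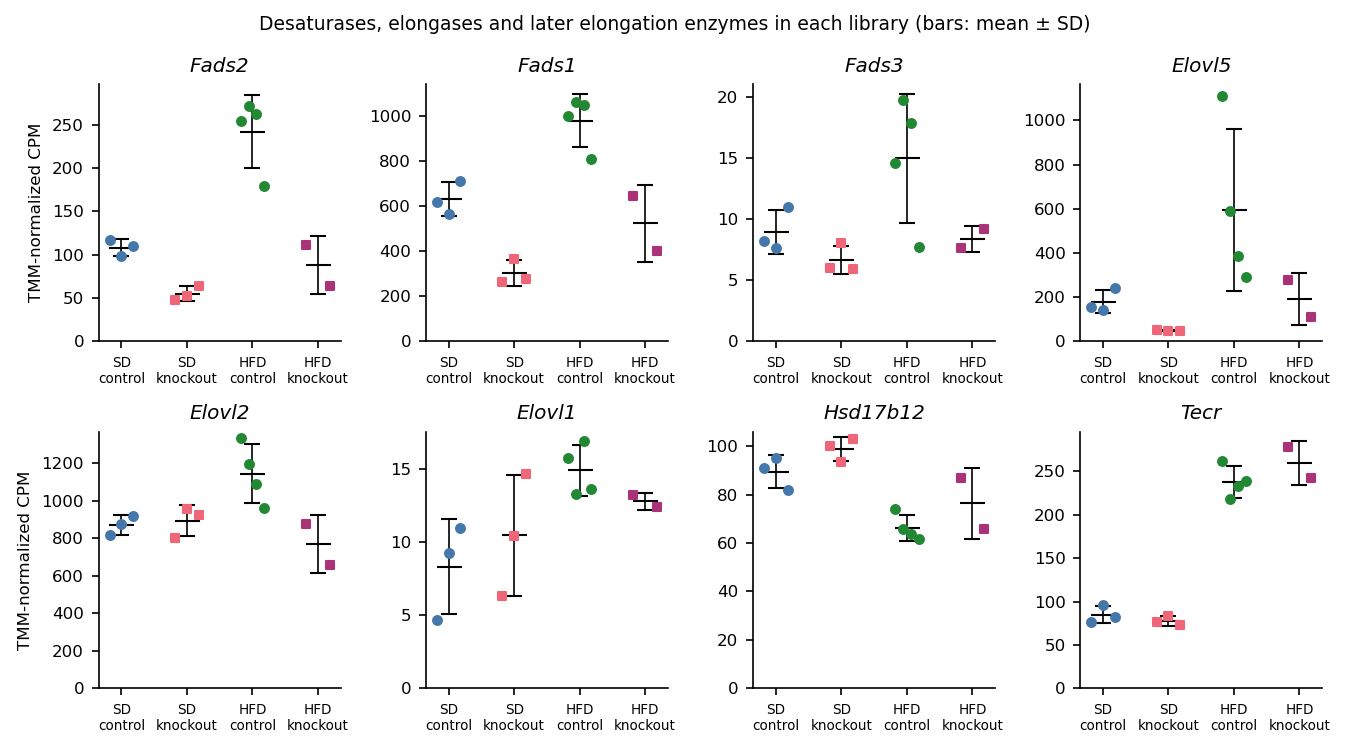
TMM-normalized CPM of each of the 8 genes in every library, by group (points: libraries; bars: mean ± SD), on linear axes that start at 0. In Fads2, Fads1 and Elovl5 the SD knockouts lie wholly below the SD controls, whereas in Elovl2, Hsd17b12 and Tecr the SD groups overlap.

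Elovl5, which lengthens the first desaturation products, showed the largest knockout change of the set on SD. It stood at 153, 143 and 241 CPM in controls and at 51.0, 45.6 and 45.6 CPM in knockouts, so that the knockouts lay close together and well below the lowest control. The log2 fold change was -1.92 (SE 0.44, edgeR adjusted p = 0.0218). The call was lost without SD control 3, the highest control (-1.64, adjusted p = 0.117), and without any 1 of the knockouts (adjusted p = 0.0635, 0.0895 and 0.0910, changes of -1.89 to -1.98). Elovl2, which acts on the longer chains towards docosahexaenoic acid, was at 816, 877 and 919 CPM in controls and 802, 957 and 923 CPM in knockouts. Those groups overlapped almost completely (0.04, SE 0.14, edgeR adjusted p = 0.938). Elovl1, which lengthens saturated and monounsaturated very long chains, was at 4.69, 9.24 and 11.0 CPM against 6.33, 10.4 and 14.6 CPM, a spread within each group larger than the difference (0.30, SE 0.31, edgeR adjusted p = 0.693).

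Hsd17b12, the ketoacyl-CoA reductase of the elongation cycle, was at 91.0, 95.3 and 82.1 CPM in SD controls and 99.99, 93.3 and 103 CPM in SD knockouts. Tecr, the enoyl-CoA reductase that closes the cycle, was at 76.5, 95.7 and 81.8 CPM against 77.0, 83.3 and 72.8 CPM. Neither passed the test (log2 fold changes 0.15, SE 0.12, and -0.12, SE 0.12, with edgeR adjusted p = 0.605 and 0.664). Tecr has a processed pseudogene that shares 807 aligned bases at 93.3% identity and was not in the count table, so its counts are uncertain to the extent that reads were shared.

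On the high-fat diet both main desaturases were again lower in the knockouts. Fads2 was 2.77-fold and Fads1 1.87-fold lower, and these 2 of 8 members fell and 0 rose, beside 2.70% of all genes called, 1.66% lower and 1.04% higher. The median change of the 8 members was -0.70, beside -0.01 for all genes. All HFD knockout libraries lay below all HFD controls for 5 members (Fads1, Fads2, Elovl1, Elovl2 and Elovl5), against 11.9% of all genes. Elovl5 and Elovl2 had knockout values below every control but did not pass the test.

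Fads2 was at 255, 272, 263 and 180 CPM among HFD controls and at 111 and 64.2 CPM among HFD knockouts. The knockouts were thus clear of the lowest control (log2 fold change -1.47, SE 0.21, edgeR adjusted p = 0.00125), and without HFD control 1 the change was -1.44 (adjusted p = 0.00149). Fads1 was at 998, 1061, 1047 and 807 CPM in controls and 644 and 400 CPM in knockouts (-0.91, SE 0.19, edgeR adjusted p = 0.0181), or -0.89 (adjusted p = 0.0196) without HFD control 1. The Fads1 call was lost without HFD knockout 2, the lower of the pair (-0.60, adjusted p = 0.187), without HFD control 2 (adjusted p = 0.0538), and when only the HFD groups were fitted (adjusted p = 0.0727). Fads3 was at 14.6, 19.7, 17.9 and 7.67 CPM against 7.64 and 9.15 CPM, so that HFD control 4 sat among the knockouts. Its change of -0.83 (SE 0.29, edgeR adjusted p = 0.174) passed without that library (-1.03, adjusted p = 0.0190), and was -0.84 (adjusted p = 0.160) without HFD control 1.

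Elovl5 varied widely among the HFD libraries. Its level was 1109, 588, 386 and 292 CPM in controls and 276 and 107 CPM in the knockouts, so the highest knockout and the lowest control were close. The standard deviation of its log2 CPM in HFD controls was 0.84, larger than that of 98.1% of tested genes, whose median was 0.20. The change was -1.64 (SE 0.45, edgeR adjusted p = 0.0737), and it was -1.13 (adjusted p = 0.0756) without HFD control 1, which held the highest value. It passed without HFD control 4 (-1.86, adjusted p = 0.0412) and with no filter on low counts (adjusted p = 0.00126).

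Elovl2 measured 1331, 1194, 1086 and 963 CPM in HFD controls and 877 and 658 CPM in HFD knockouts. Its knockouts lay below every control by a small margin (-0.58, SE 0.15, edgeR adjusted p = 0.0529, and -0.49, adjusted p = 0.0678, without HFD control 1). DESeq2 called it (adjusted p = 0.00806), as did edgeR without a filter (0.0157) and without HFD control 4 (-0.65, adjusted p = 0.0423). Elovl1 was at 15.8, 13.3, 16.9 and 13.6 CPM in controls and 13.2 and 12.4 CPM in knockouts, just apart and not called (-0.23, SE 0.24, edgeR adjusted p = 0.763, and -0.19 without HFD control 1). Hsd17b12 (74.0, 65.7, 63.9 and 61.7 CPM against 86.8 and 66.0 CPM) and Tecr (262, 218, 234 and 239 CPM against 278 and 242 CPM) overlapped between the groups. Their changes of 0.20 (SE 0.12) and 0.13 (SE 0.11) had edgeR adjusted p = 0.516 and 0.698, and were 0.27 and 0.18 without HFD control 1.

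**Figure D2:**
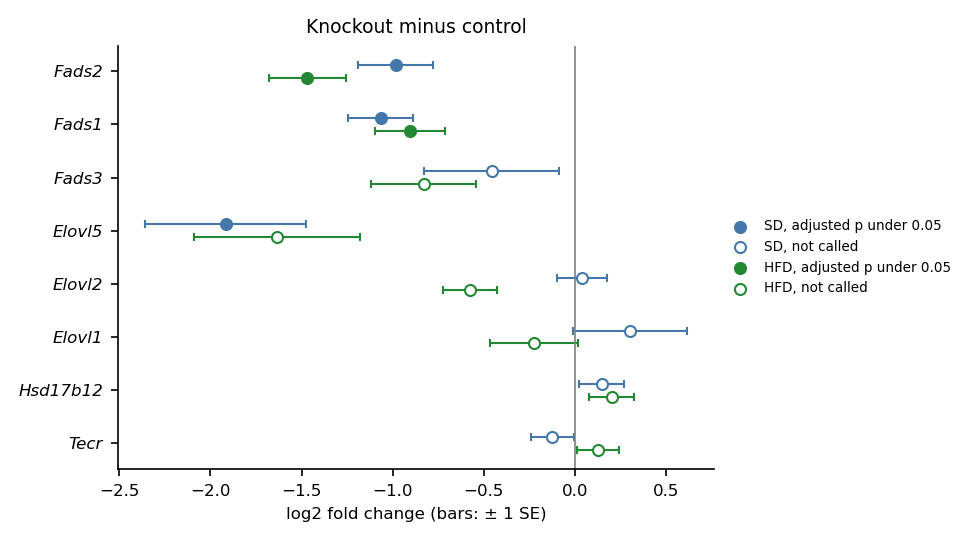
Log2 fold change of knockout minus control for the 8 genes on each diet (bars: ± 1 SE; filled symbols: adjusted p under 0.05). Fads2 and Fads1 are called on both diets and Elovl5 on SD, and the symbols of Hsd17b12 and Tecr lie within 0.3 of 0.

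With both diets fitted together, the mean knockout effect was -1.23 for Fads2 (SE 0.15, edgeR adjusted p = 8.42e-05). For Fads1 it was -0.99 (SE 0.13, adjusted p = 0.000227) and for Elovl5 -1.78 (SE 0.32, adjusted p = 0.00247). These 3 of 8 members were called lower and 0 higher, beside 8.36% of all genes called, 5.36% lower and 3.00% higher. All 3 were called in each of 18 alternative analyses. Without HFD control 1 the effects were -1.21, -0.98 and -1.52. Fads3 (-0.64, SE 0.23, adjusted p = 0.114) and Elovl2 (-0.27, SE 0.10, adjusted p = 0.125) were not called, and Fads3 passed without HFD control 4 (-0.74, adjusted p = 0.0107). Elovl1 (0.04), Hsd17b12 (0.17) and Tecr (0.00) had adjusted p of 0.950, 0.265 and 1.

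The knockout effect was not shown to differ between diets for any member. The interaction test of edgeR called 0 members and 0.00% of the 12015 genes. At an unadjusted p under 0.05 there were 911 such genes, and DESeq2 called 16, none of them a member. The largest difference in the set was that of Elovl2, whose knockout effect was 0.61 lower on the log2 scale on HFD than on SD (-0.61, SE 0.20, unadjusted p = 0.00831, edgeR adjusted p = 0.514). For Fads2 the difference was -0.49 (SE 0.29, edgeR adjusted p = 0.763), for Fads1 0.16 (SE 0.26, adjusted p = 0.941) and for Elovl5 0.28 (SE 0.60, adjusted p = 0.962).

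Ratios within a library do not depend on the scaling between libraries. The ratio of Elovl2 to Elovl5 counts was 5.33, 6.15 and 3.82 in the SD controls and 15.7, 20.96 and 20.2 in the SD knockouts, without overlap. On HFD it was 1.20, 2.03, 2.82 and 3.29 in controls and 3.18 and 6.12 in knockouts, where the lower knockout fell within the control range. The ratio of Fads1 to Fads2 counts was 5.27, 5.73 and 6.47 in SD controls and 5.47, 6.98 and 4.29 in SD knockouts, the knockouts spanning the controls. In HFD controls it was narrower, at 3.91, 3.90, 3.98 and 4.49, and both HFD knockouts were higher, at 5.78 and 6.23. The ratios are given as a description and were not tested.

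**Figure D3:**
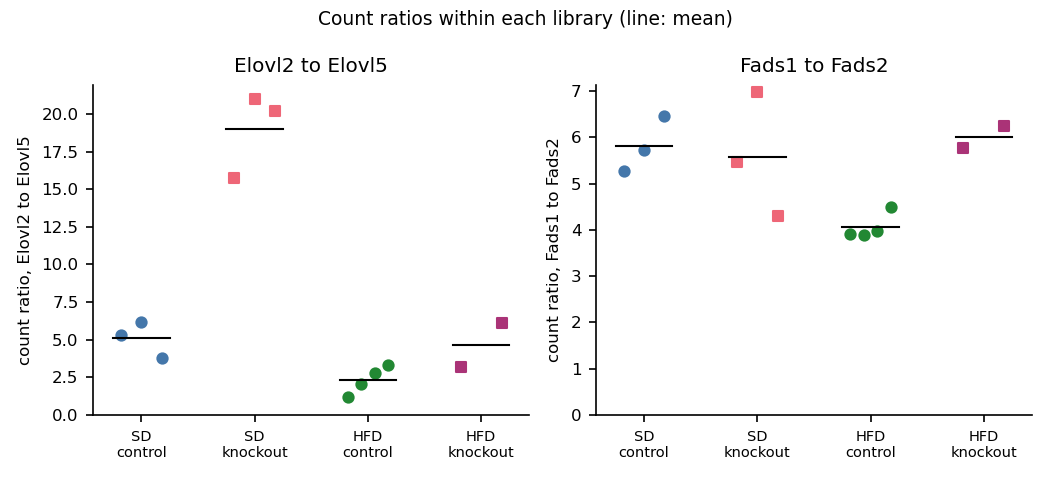
Ratio of Elovl2 to Elovl5 counts (left) and of Fads1 to Fads2 counts (right) within each library, on linear axes that start at 0 (points: libraries; line: group mean). The SD knockouts stand at 15.7 to 20.96 for Elovl2 to Elovl5, above all other libraries, and the HFD controls have the lowest mean for Fads1 to Fads2.

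Between the diets most of the set differed, as did depth and the shares of Rn45s and ribosomal protein counts given above, whose part in these differences was not tested. In controls, 6 of 8 members were higher on HFD and 1 was lower, beside 30.1% of all genes called, 16.5% higher and 13.6% lower. The libraries of the diets did not overlap for 7 members, all but Fads3, against 37.2% of all genes. Tecr was 2.81-fold higher (log2 fold change 1.49, SE 0.11, edgeR adjusted p = 4.17e-08), Elovl5 3.31-fold (1.73, SE 0.40, adjusted p = 0.00363), Fads2 2.24-fold (1.16, SE 0.18, adjusted p = 0.000179) and Fads1 1.55-fold (0.64, SE 0.17, adjusted p = 0.00864). These 4 were called with each library left out. Without HFD control 1 Elovl5 was 1.24 higher on the log2 scale. Because diet and depth cannot be told apart, no direction here can be assigned to the diet alone.

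The smaller diet differences in controls kept their direction with each library left out, but some of their calls were lost. Hsd17b12 was the 1 member lower on HFD (-0.43, SE 0.11, edgeR adjusted p = 0.00849), and it missed the threshold without SD control 2 (-0.37, adjusted p = 0.0503). Elovl1 (0.82, edgeR adjusted p = 0.0267) missed it without SD control 1, SD control 2 or HFD control 3 (0.57, 0.90 and 0.76, adjusted p = 0.132, 0.0527 and 0.0571) and when the libraries were thinned to equal depth (0.78, adjusted p = 0.0902). Elovl2 (0.39, edgeR adjusted p = 0.0316) missed it without any 1 of the SD controls or HFD control 1 or 2 (0.31 to 0.44, adjusted p = 0.0559 to 0.101). Fads3 (0.73, edgeR adjusted p = 0.0712) was not called, and passed without HFD control 4 (0.94, adjusted p = 0.00307).

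In the libraries labelled knockout, 4 members were higher on HFD and 1 lower, beside 26.6% of all genes called, 14.9% higher and 11.7% lower. These 5 were also the members without overlap between the diets, against 52.7% of all genes. Tecr (1.74, SE 0.12, edgeR adjusted p = 3.35e-08) was called in each of 12 alternatives. Elovl5 was 2.01 higher (SE 0.47, adjusted p = 0.005). Fads1 was higher by 0.80 (SE 0.19, adjusted p = 0.00678), with Fads2 higher by 0.68 (SE 0.22, adjusted p = 0.0315). None of these was called without HFD knockout 1, the higher of the pair for each gene (1.19, 0.43 and 0.24, adjusted p = 0.132, 0.169 and 0.499). Fads2 was also not called without SD knockout 1 or 2 (adjusted p = 0.0995 and 0.0844). Hsd17b12 (-0.37, SE 0.13, adjusted p = 0.0492) was just under the threshold. It was not called without any 1 of the SD knockouts (adjusted p = 0.0635 to 0.132) or without HFD knockout 2 (-0.18, adjusted p = 0.420). Nor was it called when the libraries were thinned to equal depth (-0.32, adjusted p = 0.145), with no filter (0.118), with only the knockouts fitted (0.0875) or by DESeq2 (0.0560). Elovl2 was at -0.22 (SE 0.15, adjusted p = 0.322). The diet comparisons share their libraries with the knockout comparisons and are no independent evidence for them.

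**Figure D4:**
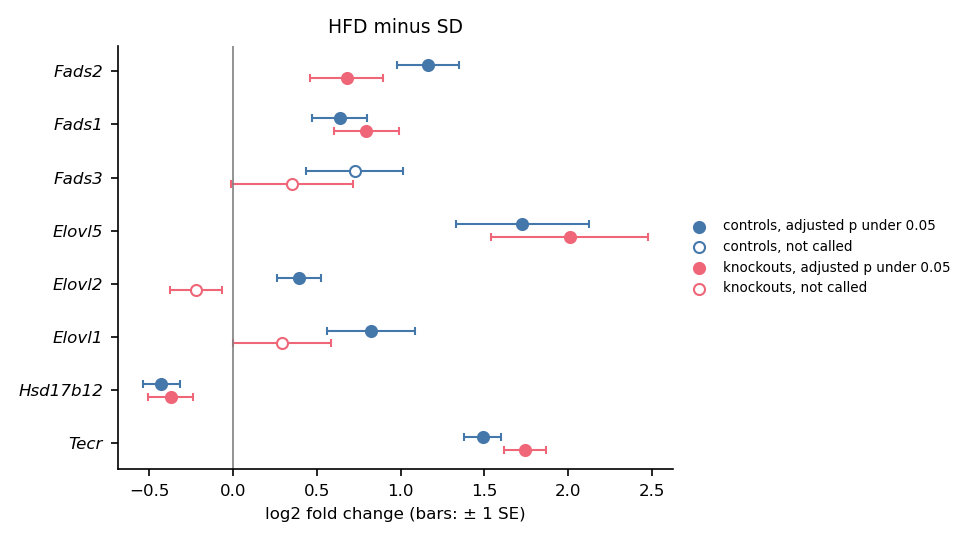
Log2 fold change of HFD minus SD for the 8 genes in controls and in libraries labelled knockout (bars: ± 1 SE; filled symbols: adjusted p under 0.05). Tecr and Elovl5 lie farthest to the right in both genotypes, and Hsd17b12 is the 1 gene called lower.

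Per kilobase of exon (union of exons in GENCODE M21), Elovl2 had the highest mean level in all 4 groups. In SD controls it was at 220 ± 13.1 CPM per kb (SD, n = 3), followed by Fads1 at 131 ± 15.6, Elovl5 at 50.8 ± 15.3, Tecr at 38.6 ± 4.51, Hsd17b12 at 37.2 ± 2.79 and Fads2 at 32.8 ± 2.87. The last 4 overlapped with a neighbour in this order, and Elovl1 (3.05 ± 1.19) and Fads3 (2.36 ± 0.47) were far below and overlapped with each other. In SD knockouts Elovl5 was at 13.5 ± 0.88 CPM per kb, sixth in the order and close to Fads2 at 16.6 ± 2.56. In HFD controls Elovl5 ranged from 83.0 to 315 CPM per kb, a span that took in Fads1 (203 ± 24.4, n = 4) and Tecr (109 ± 8.28). With the longest transcript in place of the exon union, Tecr moved above Elovl5 in SD controls and to the top in HFD knockouts (204 against 200 CPM per kb for Elovl2).

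**Figure D5:**
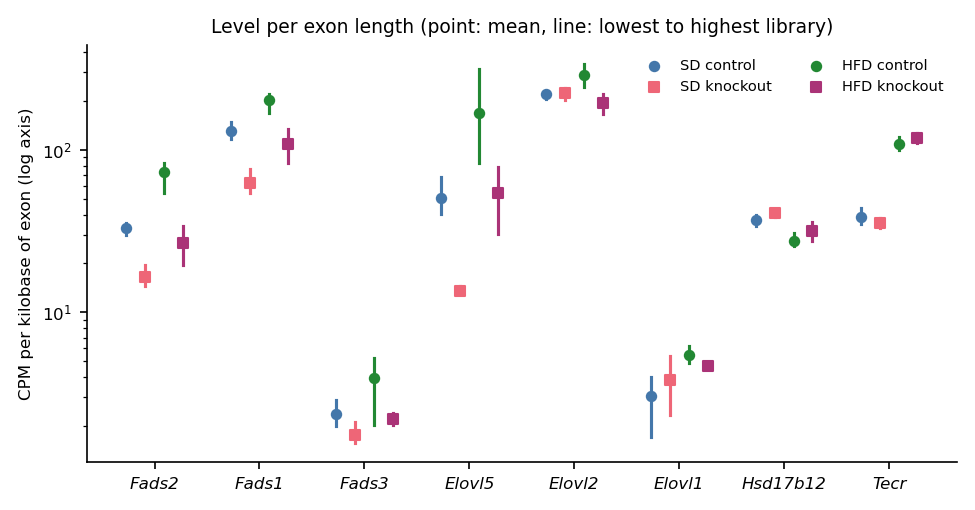
Level of each gene as CPM per kilobase of exon in the 4 groups, on a log axis (symbol: mean; line: lowest to highest library). Elovl2 and Fads1 lie above 50 CPM per kb in every library, and Elovl1 and Fads3 lie below 7.

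Genes with the most similar pattern were found by the root mean square difference of log2 CPM over the 12 libraries, each diet centred on the mean of its control and knockout means, among 8945 genes of at least 5 CPM. Fads1 was nearest to Abcb4, the canalicular phosphatidylcholine transporter, at a difference of 0.17, then to Sntb1 (0.19) and Gm10768 (0.21), and Fads2 was at rank 20 with 0.26. Fads2 was nearest to Abhd2 (0.20), and Fads1 was its second neighbour, ahead of the sialyltransferase gene St6gal1 (0.26). Elovl5 had no close neighbour. Its nearest gene was Dusp6, a phosphatase of ERK kinases, at 0.42, followed by Snhg11 (0.47) and Sftpa1 (0.47), and Fads2 was at rank 10. Elovl2 was nearest to E330020D12Rik (0.16), Fancl (0.16) and Myo9b (0.17). The fitted SD change of E330020D12Rik was 0 and stayed so with each SD library left out, as for a gene without counts there. Its likeness to Elovl2 on SD may thus be that of a flat row. Fancl and Myo9b also changed little on SD (-0.03 and -0.08) and, like Elovl2, were not called on either diet (-0.31 and -0.37 on HFD). The points share libraries and depth, and the likeness is a description.

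Around the pathway, most listed genes did not pass, and in the knockout comparisons 0 of the listed enzymes and regulators were higher on either diet. Of the 5 tested electron donors of the desaturases, 2 fell on SD and 1 on HFD (medians -0.58 and -0.27). Cyb5a, listed as Cyb5, was not called on either diet. Cyb5b, an outer mitochondrial membrane cytochrome b5, was at 396 to 443 CPM in SD controls against 225 to 258 CPM in SD knockouts (-0.77, SE 0.12, edgeR adjusted p = 0.00138). On HFD it was at 343 to 467 CPM against 249.7 and 249.96 CPM (-0.66, SE 0.13, adjusted p = 0.00988, and 0.00854 without HFD control 1), and that call was lost without either HFD knockout. Cyb5r3, the reductase that passes electrons to cytochrome b5, fell on SD (-0.69, SE 0.15, edgeR adjusted p = 0.0153), a call lost on leaving out SD control 3 or either of SD knockouts 1 and 2. On HFD it was at -0.30 (SE 0.16, adjusted p = 0.435), or -0.17 (adjusted p = 0.595) without HFD control 1.

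Among 7 tested elongases and dehydratases outside the set, 0 were called on SD and 0 on HFD (medians 0.04 and -0.51), and 2 fell in the mean effect over both diets. Elovl6, which lengthens saturated chains, had a mean effect of -0.91 (SE 0.27, edgeR adjusted p = 0.0462), which did not pass with any of 8 of the 12 libraries left out. The dehydratase gene Hacd3, listed as Ptplad1, was at -0.45 (SE 0.10, edgeR adjusted p = 0.00753), and passed on HFD alone without HFD control 1 (-0.58, adjusted p = 0.0190). Of 5 tested stearoyl-CoA and other desaturases, 0 were called on either diet (medians -0.52 and 0.02), and Fads6 fell in the mean effect (-0.71, edgeR adjusted p = 0.0428), a call lost in 10 of 12 omissions. Without HFD control 1, Fads6 was called on HFD alone (-0.96, adjusted p = 0.0468). Scd1, the main stearoyl-CoA desaturase of liver, was at -3.02 (SE 0.98) on SD with an edgeR adjusted p = 0.101, and at 0.11 (SE 0.95) on HFD.

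Transcriptional regulators of polyunsaturated fatty acid synthesis were called lower on SD in 4 of 16 tested (Insig1, Nfyb, Ppara and Srebf1) and in 0 of 16 on HFD (medians -0.16 and -0.10). In the mean effect over both diets 5 of 16 were called lower, these 4 and Mlxipl (median -0.17). Of all genes, 2.94% were called lower on SD, 1.66% on HFD and 5.36% in the mean effect. Srebf1, which encodes SREBP1, was at -0.81 (SE 0.17, edgeR adjusted p = 0.0138) on SD and -0.14 (SE 0.17, adjusted p = 0.795) on HFD, a difference with an interaction adjusted p of 0.556. Insig1, which retains SREBP precursors in the endoplasmic reticulum, was at -0.74 (SE 0.15, adjusted p = 0.0118) on SD, a call lost without SD control 3. On HFD it was at -0.60 (adjusted p = 0.0618), and passed without HFD control 1 (-0.70, adjusted p = 0.00921). The SD calls of Ppara (-0.53, adjusted p = 0.0257) and Nfyb (-0.69, adjusted p = 0.0257) were each lost with any of 4 of the 6 SD libraries left out.

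Genes on either side of the desaturases changed in small numbers. Of 7 tested genes that place acyl chains in phospholipid (medians -0.12 and -0.05), 1 fell on each diet, Lpgat1, a lysophospholipid acyltransferase (-0.84, SE 0.11, edgeR adjusted p = 0.000622 on SD, and -0.93, SE 0.12, adjusted p = 0.000708 on HFD), and both calls held with each library left out. Of 8 tested genes from a list of oxygenases of these fatty acids and an epoxide hydrolase (medians -0.35 and -0.22), 1 fell on each diet, Cyp4f14 (-1.73, adjusted p = 0.0011, and -1.67, adjusted p = 0.00208). It passed on HFD at 5.84e-06 without HFD control 1 and not without HFD knockout 1 (adjusted p = 0.0512). Of 11 tested genes of peroxisomal chain shortening, which completes docosahexaenoic acid, 1 fell on SD (median -0.18), Acaa1b (-1.19, adjusted p = 0.00911, lost without SD knockout 2 or 3). Of 6 tested genes listed as long-chain acyl-CoA synthetases, from the Acsl and Slc27a families (medians -0.24 and 0.01), 1 fell on SD and 0 on HFD. The 1 was Slc27a5 (-0.57, adjusted p = 0.0154, lost on leaving out SD control 3 or either of SD knockouts 2 and 3). Acsl3 fell in the mean effect over both diets (-0.77, edgeR adjusted p = 0.0142), a call lost in 2 of 12 omissions.

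Markers of other cells moved with genotype in places. The summed level of 6 cholangiocyte markers was 63.2 to 67.6 CPM in SD controls and 81.3 to 219 CPM in SD knockouts, and 44.1 to 126 CPM against 114 and 131 CPM on HFD (0 of 4 tested called on either diet). That of 7 stellate cell and fibroblast markers was 242 to 314 CPM against 301 to 387 CPM on SD and 189 to 287 against 275 and 350 CPM on HFD (0 of 7 called on either diet, with Col1a2 and Col3a1 higher in the mean effect). Sums of 6 macrophage markers overlapped on SD (170 to 261 against 176 to 239 CPM) and on HFD (136 to 320 against 221 and 245 CPM). Sums of 6 endothelial markers overlapped as well on SD (212 to 296 against 244 to 287 CPM). On HFD they overlapped narrowly (193 to 238.1 against 237.7 and 255 CPM). The adipocyte markers Adipoq and Lep were at 0 in every library, while Cfd stood at 36.8 and 69.1 CPM in the HFD knockouts and at most 3.09 CPM in the HFD controls. Sums of 7 lymphocyte and neutrophil markers were 16.8 to 24.4 against 19.2 to 22.0 CPM on SD and 17.4 to 41.3 against 33.6 and 38.4 CPM on HFD. Sums of 9 hepatocyte markers overlapped on SD, and on HFD they were 111620 to 116107 CPM in controls and 129025 and 175777 CPM in knockouts. Alb takes a large part of that sum, with 7.58% to 8.45% of all counts in HFD controls and 10.02% and 13.7% in HFD knockouts. By gene, 8 of the 9 had a negative change on SD (median -0.12, with Ahsg called lower, a call lost with any SD library left out) and 5 of the 9 on HFD (median -0.21, with Ttr called higher). The Ttr call was lost without HFD knockout 1, and Ttr was not called in the mean effect (0.26, edgeR adjusted p = 0.0864). Without HFD control 1, Ahsg was called lower on HFD as well (-0.59, edgeR adjusted p = 0.0142), and 2 of 3 tested cholangiocyte markers were called higher. The part of these shifts in the changes of Fads1, Fads2 and Elovl5 was not tested.

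The share of counts from Malat1, a nuclear RNA, was 1.13% to 1.37% in HFD controls and 1.58% and 1.79% in HFD knockouts, and 0.461% to 0.689% against 0.677% to 1.07% on SD. Its part in the results was not tested.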

How the data were processed

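Liver RNA was sequenced as 12 libraries, for each of which the authors deposited raw whole-number counts by gene symbol. The labels' protocols name Trizol and a Nugen Ovation RNA-Seq kit for total RNA. The submitters' processing notes name TopHat2 2.1.0, HTSeq, DESeq2 1.14.1 and the build mm9. How strand and multiply mapped reads were handled is not stated in the sources used here, which makes overlapping genes and near-identical copies uncertain. Among members, only Elovl1 shares exon bases with another gene (53 bases, 1.94%, with Cdc20).

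One edgeR model (version 4.0.16, R 4.3.3, limma 3.58.1) with a mean for each of the 4 groups was fitted to all 12 libraries. It used TMM factors and filterByExpr (minimum count 10), and its common biological coefficient of variation was 0.153. Two-sided quasi-likelihood tests were adjusted by Benjamini-Hochberg across the 12015 genes kept. Standard errors come from the test statistic. The steps were tested on simulated data. Members and gene lists were chosen with earlier results of these data known. Named are all members, up to 3 genes per list with the smallest p for the mean effect among those called, the 3 genes most like Fads1, Fads2, Elovl2 and Elovl5, and Nr5a2 and Nr0b2. Scd1, Srebf1, Cfd, Malat1 and Cyb5a were named after their values were seen. Results of some listed genes are not reported here. Exon lengths came from GENCODE M21 (GRCm38) and promoter windows from RefSeq (GRCm38.p6).

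As alternatives, DESeq2 1.42.0, RLE factors, no filter, a fit of only the groups compared, thinning to the smallest library, the replicate number as block, omission of each library, and longest-transcript lengths were tried. Thinning with the genes tested held fixed was added after the data were seen. Omitting 1 HFD knockout leaves a lone library, whose spread is taken to equal that of the other groups.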

Additional observations from a re-analysis of the deposited data

How the results depend on the processing

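The call counts of members moved under several settings, and where no construction of the setting shows the reason the cause was not tested. On HFD, 2 of the members were called against control, with 4 under no filter on low counts, 4 under the replicate block and 1 when only the HFD groups were fitted. Leaving out 1 library gave 1 to 5 on HFD, 1 to 3 on SD, 4 to 8 for diet in controls and 2 to 4 for diet in knockouts. Over all genes, the knockout calls on HFD were 325, with 518 under no filter, 127 with only the HFD groups, and 85 to 602 with 1 library left out (602 without HFD control 1). On SD, 526 genes were called, and 220 to 498 with 1 library left out. In the mean effect 1005 became 660 to 1222, and for diet in knockouts 3196 became 1978 to 2733. For the difference between diets, 0 genes became 16 with DESeq2, 17 with no filter, 1 with the replicate block, and 0 to 4 with 1 library left out.

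Signs of member changes reversed only where the change was not called. Elovl1 on HFD became 0.0764 when thinned, and 0.0651 when thinned with the genes tested held fixed. With 1 library left out, the change on SD ran from -0.0347 to 0.585 for Elovl1 and from -0.0157 to 0.108 for Elovl2 (-0.00468 without SD control 1). For Hsd17b12 on HFD it ran from -0.00257 to 0.392. The difference between diets ran from -0.216 to 0.465 for Fads1, from -0.548 to 0.810 for Elovl5 and from -0.148 to 0.244 for Hsd17b12, which was at -0.00419 with the replicate block. The mean effect ran from -0.131 to 0.185 for Elovl1 and from -0.0474 to 0.0533 for Tecr, which was at -0.00696 with no filter and -0.0124 with the replicate block.

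Same-numbered control and knockout libraries correlated at 0.0468, 0.0427 and -0.0127 on SD and at 0.121 and 0.00886 on HFD. Differently numbered SD libraries ran from -0.0580 to 0.0185, and with 3 libraries per group pairing was neither shown nor excluded. With 2 HFD knockouts, the deviations of 1 reverse those of the other (0.121 and -0.121 for HFD control 1). The HFD values therefore cannot decide pairing. With the replicate block, Elovl5 (-1.95, adjusted p = 0.00924) and Fads3 (-1.01, adjusted p = 0.0198) were called on HFD. The SD libraries hold 2371167 to 3404570 counts, which limits Fads3 and Elovl1 most, with 12 to 42 counts per SD library.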
